A study of Mus musculus with 8 samples.

Results

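The RNA of mouse embryonic stem (ES) cells lacking both Pcgf3 and Pcgf5 was compared with that of cells lacking Pcgf3 alone, which asks what changes when Pcgf5 is lost as well. The comparison uses 4 of the 8 libraries of the series, 2 from double knockout cells (genotype Pcgf3/5 DKO, here DKO) and 2 from Pcgf3 knockout cells (Pcgf3KO), and all 15669 genes that passed a filter on low counts. Of the 272 genes called between them, 168 were chosen as changed only when Pcgf5 is also lost: 61 higher and 107 lower in DKO. For these, both DKO libraries lay beyond both Pcgf3KO libraries and the WT library, while Pcgf3KO was not called against WT and lay within 0.5 of it on the log2 scale. The rule reads the same Pcgf3KO libraries in both comparisons, and it did not use the Pcgf5 knockout (Pcgf5KO).

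All lines are of strain C57BL/6. Pcgf3KO, Pcgf5KO and DKO cells were made with Cas9, a programmable nuclease, and WT cells are unedited. All were grown in serum with leukemia inhibitory factor, which sustains self-renewal, on mouse embryonic fibroblasts arrested with mitomycin-C, so each library can hold feeder RNA. Libraries were made from poly-A RNA with a kit that does not mark strand. The labels give 2 replicates per genotype and do not say whether these are separate clones or cultures, so p-values cover only the spread between these libraries, which may be technical. The WT replicate 1 table used here lists 8093 genes, so WT is 1 library, replicate 2, unless stated.

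PCGF3 and PCGF5 are RING finger subunits of variant Polycomb repressive complex 1 (PRC1). Each pairs with RING1A or RING1B, and the complex ubiquitinates histone H2A, a mark tied to gene silencing. The complexes that hold PCGF3 or PCGF5 are close relatives with shared partners such as AUTS2 and casein kinase, and in ES cells they are known for broad, low-level H2A ubiquitination and for a part in silencing by Xist RNA.

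Promoters are shown for 4 of the genes that fell, 2 in the class and 2 outside it, from RefSeq on GRCm38.p6, which is the mm10 assembly of the tables. Each runs 5′ to 3′ on the gene's strand from 250 bases before to 50 bases after the start. Plaur (chr7:24462233-24462532, plus strand) and Anxa2 (chr9:69453433-69453732, plus strand) belong to the class. Gstp1 (chr19:4037863-4038162, minus strand) and Gstp2 (chr19:4042172-4042471, minus strand), neighbouring copies of a glutathione transferase gene, fell together from a level above WT in Pcgf3KO and so lie outside it. Capitals mark the letters TGANTCA, the core of sites bound by Jun and Fos proteins (AP-1), whose match reads the same way on both strands. It lies 69 bases before the start in Plaur, 95 in Anxa2, 74 in Gstp1 and 89 in Gstp2.
Plaur: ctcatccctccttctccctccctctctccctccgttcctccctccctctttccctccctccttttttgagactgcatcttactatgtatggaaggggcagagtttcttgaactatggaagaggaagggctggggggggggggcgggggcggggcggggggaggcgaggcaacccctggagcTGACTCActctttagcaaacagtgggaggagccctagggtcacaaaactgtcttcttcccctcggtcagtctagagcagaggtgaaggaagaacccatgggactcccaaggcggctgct
Anxa2: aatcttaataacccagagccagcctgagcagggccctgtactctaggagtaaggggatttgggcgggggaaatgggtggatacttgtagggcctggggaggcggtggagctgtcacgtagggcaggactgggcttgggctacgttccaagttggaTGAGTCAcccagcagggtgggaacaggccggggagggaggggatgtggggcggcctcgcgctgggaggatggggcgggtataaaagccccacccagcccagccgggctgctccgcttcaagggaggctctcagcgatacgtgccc
Gstp1: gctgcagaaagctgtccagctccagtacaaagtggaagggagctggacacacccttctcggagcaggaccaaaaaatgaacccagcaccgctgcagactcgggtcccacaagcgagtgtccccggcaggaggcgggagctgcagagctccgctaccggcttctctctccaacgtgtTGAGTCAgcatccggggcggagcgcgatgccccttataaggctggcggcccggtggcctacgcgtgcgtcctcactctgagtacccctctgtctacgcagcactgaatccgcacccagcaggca
Gstp2: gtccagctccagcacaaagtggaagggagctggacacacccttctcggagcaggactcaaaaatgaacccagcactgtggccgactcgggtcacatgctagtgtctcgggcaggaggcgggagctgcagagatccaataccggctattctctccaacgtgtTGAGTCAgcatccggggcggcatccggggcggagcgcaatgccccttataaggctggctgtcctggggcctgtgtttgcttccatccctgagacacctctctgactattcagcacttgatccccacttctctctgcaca
Of the 32851 promoters in the RefSeq table, 7.81% hold these letters, and the 4 were chosen with the match known. A match is a description of the sequence and not a site in use. Of the 168 class members, 124 (73.8%) have a promoter in the table, below the 80% needed for a check over the class, so no share of members with a motif is given.

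The 7 whole libraries held 12652616 to 19923964 counts. Levels below are CPM, the counts scaled to library size, and compare a gene across libraries, not genes with each other. The ES cell markers were high in every library, with a CPM of 377 to 494 for Esrrb, 196 to 261 for Pou5f1 and 96.8 to 142 for Nanog. Pcgf3 had 66.1 and 60.5 in Pcgf3KO and 86.6 and 67.2 in DKO, and Pcgf5 had 17.3 and 17.4 in Pcgf3KO and 13.5 and 13.9 in DKO. Neither passed the test between these groups (adjusted p = 0.251 and 0.263), though both DKO libraries lay below both Pcgf3KO libraries for Pcgf5. The 2 DKO libraries were less alike (Pearson correlation across genes 0.985) than the Pcgf3KO pair (0.993), and DKO replicate 2 resembled Pcgf3KO replicate 2 (0.989) more than its own partner. Over 9628 well expressed genes, the change in DKO replicate 1 from the Pcgf3KO mean went with GC content (r = −0.424) and log length (0.353), while in DKO replicate 2 these were 0.0938 and 0.0152. The Y-linked Eif2s3y had 6.11 in DKO replicate 1 and 56.8 in DKO replicate 2, against 59.2 to 66.8 in the other libraries. The Y-linked Ddx3y had 83.5 and 67.5 in DKO.

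At an adjusted p of at most 0.05, 115 genes were higher (0.734% of those tested) and 157 lower (1%) in DKO than in Pcgf3KO, with 42 and 28 changed by more than 2-fold. The libraries of the 2 genotypes did not overlap for any called gene. A small p already favours such separation, and the share over all genes is not given, so nothing is read from it. With GC content and length offsets, an alternative chosen after seeing the data, 396 were higher and 342 lower. The counts also moved with single libraries. Without Pcgf3KO replicate 1 they were 5 and 9, without Pcgf3KO replicate 2 they were 4 and 3, and without Pcgf5KO replicate 1 or 2, which only inform the spread, 24 and 27. Without DKO replicate 1 they were 938 and 995, and without DKO replicate 2 they were 2711 and 2860. Of the 272 called genes, 6 passed the test in all 13 alternative settings: Rhox5, Platr13, Pgk1 and Lefty2 among the rises, and Acta2 and S100a6 among the falls. The other 266 did not pass without 1 or both of the Pcgf3KO libraries.

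The 61 genes of the class that rose had a median log2 fold change of 0.70 (0.35 to 2.33), with 14 past 2-fold, and the 107 that fell had −0.64 (−1.45 to −0.35), with 11 past 2-fold. The median over all genes tested was 0.01. Class members had a mean CPM in their higher genotype of 2.04 to 474 among the rises and 5.48 to 599 among the falls. Both DKO libraries also lay above all 5 other libraries, Pcgf5KO included, for 57 of the 61, and below all 5 for 98 of the 107. Over all genes, 9.85% lay above and 10.4% below. As the rule already sets DKO apart from 3 of these libraries, nothing is read from those shares. With at least 1 log2 unit between the nearest DKO and Pcgf3KO libraries, which 0.504% of all genes had upward and 0.191% downward, there were 8 and 2 members. The members that fell had a median change of −0.70 in DKO replicate 1 and −0.53 in DKO replicate 2, and those that rose 0.70 and 0.64. DKO replicate 1 was the further library for 88 of the 107 falls and 34 of the 61 rises. The share of that library's GC and length trend in the falls was not tested beyond the offsets above, under which the class held 211 rises and 216 falls. Without Pcgf3KO replicate 1 the class held 1 rise and 3 falls, and without Pcgf3KO replicate 2 it held 1 and 1. It held 10 and 14 without Pcgf5KO replicate 1 or 2, 461 and 527 without DKO replicate 1, and 1799 and 1953 without DKO replicate 2. At the edge of the rule, Tnrc18 entered at an adjusted p of 0.0485 and Ephx2 stayed out at 0.0508.

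**Figure D1:**
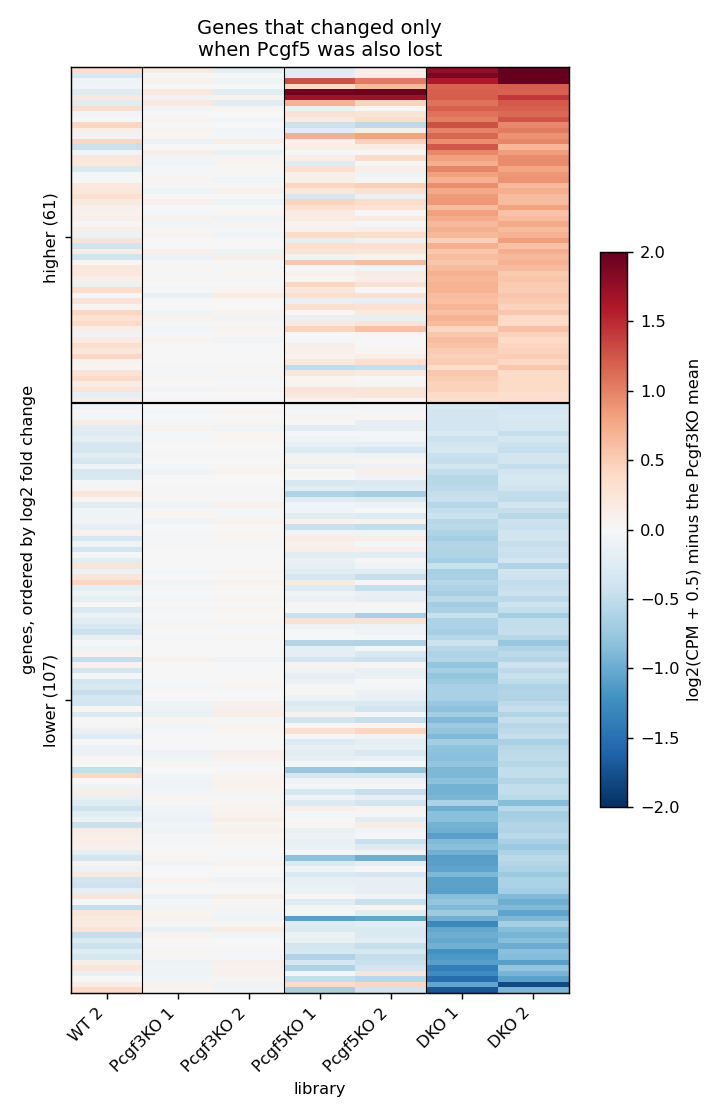
Heat map of the 168 genes (rows, ordered by log2 fold change) in the 7 whole libraries (columns), as log2(CPM + 0.5) minus the mean of the Pcgf3KO libraries. The 61 rises are red and the 107 falls blue in both DKO columns, the falls deeper in DKO 1 (median −0.70) than in DKO 2 (−0.53), and most rows are pale in WT and Pcgf5KO.

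The partial WT replicate 1 table lists 13 of the 168 members, 3 that rose and 10 that fell. On levels scaled to the genes listed in all 8 libraries, both DKO libraries lay beyond both WT libraries for 3 of the 3 and 10 of the 10. The rule had already set DKO beyond WT replicate 2, and the share over all genes listed is not given. Nothing is therefore read from these counts. The other members rest on 1 WT library. Of the rises, 6 lie on the X chromosome (9.84%), and of the falls 5 (4.67%), against 3.62% of all genes tested. Noncoding genes were 2 of the rises and 0 of the falls, beside 1618 of the 15669 genes tested.

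Rhox5, an X-linked reproductive homeobox gene of the placenta and early embryo, led the rises seen with both genes lost. Its CPM was 13.3 for WT, 16.9 and 16.6 for Pcgf3KO, 14.1 and 18.5 for Pcgf5KO, and 63.3 and 77.2 for DKO. The 5 libraries with at least 1 of the 2 genes intact thus lay together, far below DKO (log2 fold change against Pcgf3KO 2.07 ± 0.14, SE, adjusted p = 0.000541). Of the 5 Rhox genes tested it was the one called, and the median of the 5 was 0.04. Tbx3, a T-box factor of the naive ES cell network, had 2.17 and 1.57 in Pcgf3KO and 7.43 and 11.5 in DKO. WT (2.45) and Pcgf5KO (1.48 and 2.02) stayed with Pcgf3KO (2.33 ± 0.28, adjusted p = 0.00584). Sema5a, a semaphorin of axon guidance, had 17.8 in WT, while Pcgf3KO had 13.1 and 13, Pcgf5KO 9.53 and 8.98, and DKO 32.3 and 25.8. It was lowest with Pcgf5 alone lost (−0.94 against WT, adjusted p = 0.0261) and highest with both lost (1.15 ± 0.14 against Pcgf3KO, adjusted p = 0.00502). Saa3, an acute-phase protein gene, had 4.84 and 5.26 in Pcgf3KO and 12.2 and 12.2 in DKO, with 4.56 to 6.55 in the other libraries. Sdc4, a cell-surface heparan sulfate proteoglycan, had 116 and 110 in Pcgf3KO and 176 and 176 in DKO, and Nlrp4f 58.6 and 63.7 against 96.3 and 104. For all 3, WT and Pcgf5KO were near the level of Pcgf3KO. These 6 genes had adjusted p-values of 0.0414 to 0.185 without Pcgf3KO replicate 1 and of 0.0387 to 0.176 without replicate 2, and each time Rhox5 was the one that passed.

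**Figure D2:**
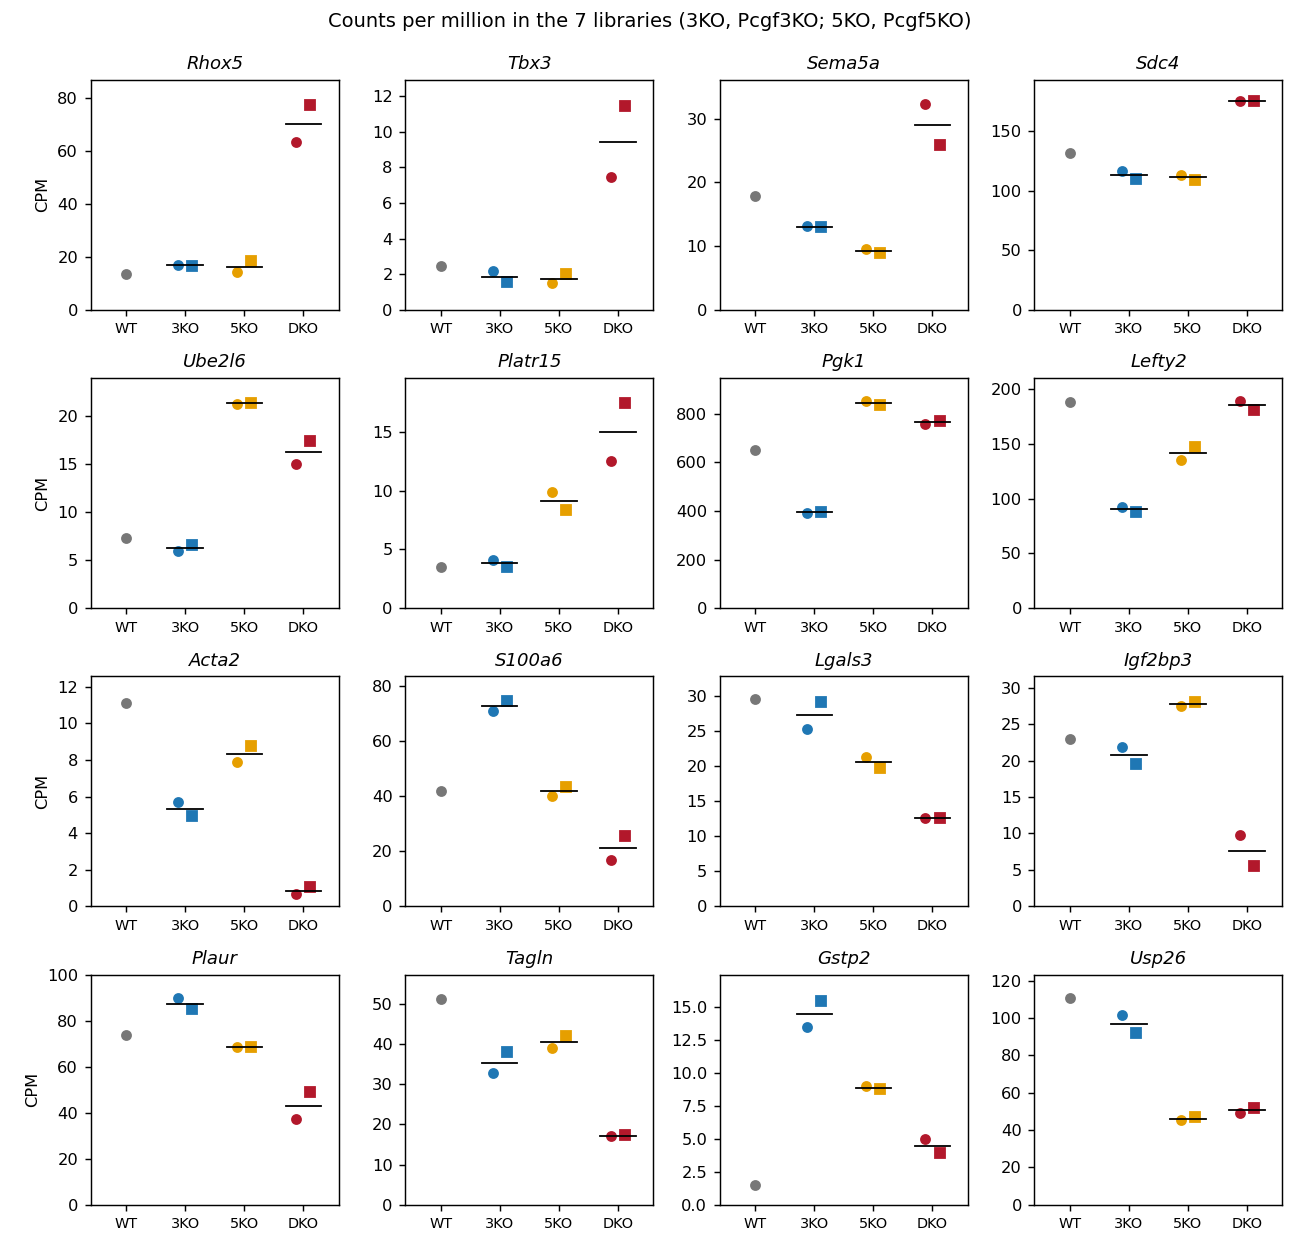
CPM (linear axes from 0) of 16 genes in WT (1 library), Pcgf3KO (3KO), Pcgf5KO (5KO) and DKO (2 libraries each, circle for replicate 1 and square for replicate 2), with the mean of each pair as a line. Rhox5, Tbx3, Sema5a and Sdc4 are high in DKO alone, Ube2l6 and Platr15 are high and Usp26 is low in both genotypes without Pcgf5, and Pgk1 and Lefty2 are lowest in Pcgf3KO.

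Of 48 Polycomb-marked developmental regulators tested, 3 rose (Otx2, Tbx3 and Tbx4), which is 6.25% beside the 0.734% of all genes. Lhx9 fell (2.08% beside 1%), and the median log2 fold change was 0.25. Of these only Tbx3 belongs to the class. Their summed CPM was 254.4 and 242 in Pcgf3KO, 283.3 and 369.6 in DKO and 365.8 in WT, so 1 DKO library reached the WT level. Without DKO replicate 1 the list had 8 rises and 1 fall, and without DKO replicate 2 it had 6 and 6. Otx2, a homeobox factor of the primed epiblast and forebrain, had 13.8 and 9.83 in DKO, against 4.08 and 4.19 in Pcgf3KO, 4.85 and 4.29 in Pcgf5KO and 1.82 in WT. It rose by 1.51 ± 0.20 (adjusted p = 0.00978) and was higher again in DKO than in either single knockout. Lhx9, a LIM homeobox gene, was at 1.06 and 0.559 in Pcgf3KO and at 0.0527 and 0.0494, 1 count in each library, in DKO. Its call was lost in 6 of the 13 alternative settings, among them DESeq2 and each Pcgf3KO or Pcgf5KO library left out (adjusted p up to 0.323). Of 6 Hox genes tested, 0 were called. The primed epiblast list had 3 rises (Otx2, Zic2 and Zic5) and 2 falls (Cldn6 and Grhl2) among 21 (14.3% and 9.52%). Zic5, a zinc finger factor of the neural plate, was at 26.2 for WT, 36.0 and 35.8 for Pcgf3KO, 39.8 and 39.8 for Pcgf5KO, and 86.1 and 57.0 for DKO. Among 38 genes of Nodal, TGF-beta and BMP signalling, 2 rose (5.26%), the ligand gene Bmp7 and the Nodal antagonist gene Lefty2. Bmp7 had 4.64 and 5.09 in Pcgf3KO and 8.38 and 9.83 in DKO, above the 4.02 to 5.69 of the other libraries. Of 27 p53 targets, 3 rose (11.1%): Trp53inp1, a class member, and Btg2 and Pmaip1, which lie outside the class. All 3 were lower in Pcgf3KO than in WT, Trp53inp1 within the limit of the class rule. Trp53inp1 had 162 and 148 in Pcgf3KO and 250 and 204 in DKO, with 189 in WT. On levels scaled to the genes listed in all 8 libraries, it had 761.9 and 758.8 in Pcgf5KO, against 1016 and 1079 in WT. The p53 list had 10 rises without DKO replicate 1 and 13 without DKO replicate 2, and the primed epiblast list 6 and 11 falls. The signalling list had 8 and 11 rises and 3 and 8 falls in the same settings. The calls of Zic5, Bmp7 and Trp53inp1 were lost without Pcgf3KO replicate 1 (adjusted p-values 0.23 to 0.378) or 2 (0.282 to 0.396), and without Pcgf5KO replicate 1 (0.0828 to 0.116) or 2 (0.0827 to 0.115). Of 30 pluripotency genes, Tbx3 rose and Dppa2 fell (190 and 192 to 145 and 152), and the median was −0.16. That list had 10 falls without DKO replicate 1 and 15 without DKO replicate 2.

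Falls were called among annexins, S100 proteins and galectins, small calcium-binding, membrane-binding and sugar-binding proteins. Of 20 tested, 10 fell (50%, beside 1% of all genes) and 0 rose, with a median log2 fold change of −0.51 beside 0.01 over all genes, and 6 of the 10 belong to the class. Their summed CPM was 1391 and 1450 in Pcgf3KO, 1303 and 1288 in Pcgf5KO, 1347 in WT, and 948.7 and 1059 in DKO, so both DKO libraries were the lowest of the 7. This list and the others were chosen with earlier results of these data known, so nothing is read from their shares. Genes called lower also had a higher mean log2 CPM (5.55) than all genes tested (3.69). In bulk RNA, fewer cells of a type and less RNA per cell cannot be told apart. Lgals3 (galectin-3) had 29.6 in WT, while Pcgf3KO had 25.3 and 29.2, Pcgf5KO 21.4 and 19.8, and DKO 12.6 and 12.6. Its fall was −1.11 ± 0.12 (adjusted p = 0.00331). S100a10, the partner of annexin A2 at the membrane, had 80.01 and 81.1 in Pcgf3KO and 49.96 and 51.4 in DKO, with 79.8 in WT and 67.4 and 70.8 in Pcgf5KO. Anxa2 itself, whose promoter is shown above, had 132 and 141 in Pcgf3KO, 114 in WT, 112 and 106 in Pcgf5KO, and 87.8 and 75.5 in DKO. Both partners were thus lowest in DKO (−0.67 ± 0.08 and −0.74 ± 0.09). Lgals1 had 120 and 136 against 64.8 and 84.4, and S100a11 had 125 and 127 against 83.2 and 92.5. S100a6 fell from 71.0 and 74.5 to 17.0 and 25.5 (−1.78 ± 0.16, adjusted p = 0.0027). It is outside the class because Pcgf3KO lay above WT (41.8). Anxa1 and Anxa3 fell in DKO and were also lower in Pcgf5KO than in WT. Among the 6 genes given values here, Lgals3 and S100a6 passed without Pcgf3KO replicate 1, and S100a6 passed without replicate 2 (adjusted p-values up to 0.282). Lgals1 and S100a11 did not pass without Pcgf5KO replicate 1 or 2 (up to 0.0861). The list had 12 falls without DKO replicate 1 and 13 without DKO replicate 2.

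Of 17 smooth muscle and contractile genes, 4 fell (Acta2, Tagln, Csrp1 and Cnn2, 23.5% beside 1% of all genes), 13 were not called, and the median was −0.24. Acta2, smooth muscle actin, had 0.685 and 1.04 in DKO, against 5.69 and 4.92 in Pcgf3KO, 7.87 and 8.73 in Pcgf5KO and 11.1 in WT. It fell by 2.61 ± 0.25 on the log2 scale (adjusted p = 0.00313), and DKO held the lowest levels of the 7 libraries. Tagln (transgelin), an actin-binding protein, had 32.7 and 37.9 in Pcgf3KO and 17.0 and 17.2 in DKO, below every other library. Its gene overlaps Pcsk7 on the other strand, and reads in the overlap cannot be told apart. Csrp1 had 131 and 133 against 75.6 and 89.6, and Cnn2 (calponin 2) 175 and 192 against 94.6 and 131. Both were near WT (122 and 172) in Pcgf3KO and belong to the class. Of these 4, Acta2 and Tagln passed without Pcgf3KO replicate 1 and without Pcgf5KO replicate 1 or 2, and Acta2 alone without Pcgf3KO replicate 2 (adjusted p-values up to 0.355). The list had 9 falls without DKO replicate 1 and 9 without DKO replicate 2.

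Of 21 genes of simple epithelium, keratins and desmosomes, 5 fell (23.8%), 16 were not called, and the median was −0.50. They include Cldn6, Jup and Krt19, which belong to the class, and Krt8, which does not. Cldn6, a tight junction claudin of early epithelia, was at 123 for WT, 110 and 116 for Pcgf3KO, 105 and 111 for Pcgf5KO, and 53.2 and 78.1 for DKO. Jup, plakoglobin of desmosomes and adherens junctions, had 326 and 359 in Pcgf3KO and 231 and 255 in DKO. Krt8, a keratin of simple epithelia, was at 418 for WT, 178 and 198 for Pcgf3KO, 153 and 154 for Pcgf5KO, and 69.8 and 115 for DKO, so it was lower with each loss and lowest with both. The median of this list between Pcgf5KO and WT was −0.53, with no library in common. Against that 1 WT library other lists were lower still, such as YAP targets (−0.83) and trophectoderm genes (−0.66). Some lists were above 0, such as pluripotency (0.36). Tgm1, a transglutaminase gene outside the lists but named by the rule, had 63.5 and 75.1 in Pcgf3KO and 37.8 and 37.2 in DKO. The list had 14 falls without DKO replicate 1 and 17 without DKO replicate 2. Among Cldn6, Krt19, Jup and Tgm1, only Tgm1 passed without Pcgf3KO replicate 1 and without Pcgf5KO replicate 1 or 2, and 0 passed without Pcgf3KO replicate 2 (adjusted p-values 0.126 to 0.396). Of 19 trophectoderm genes, 3 fell (15.8%), of which 2 are the keratins Krt8 and Krt19.

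**Figure D3:**
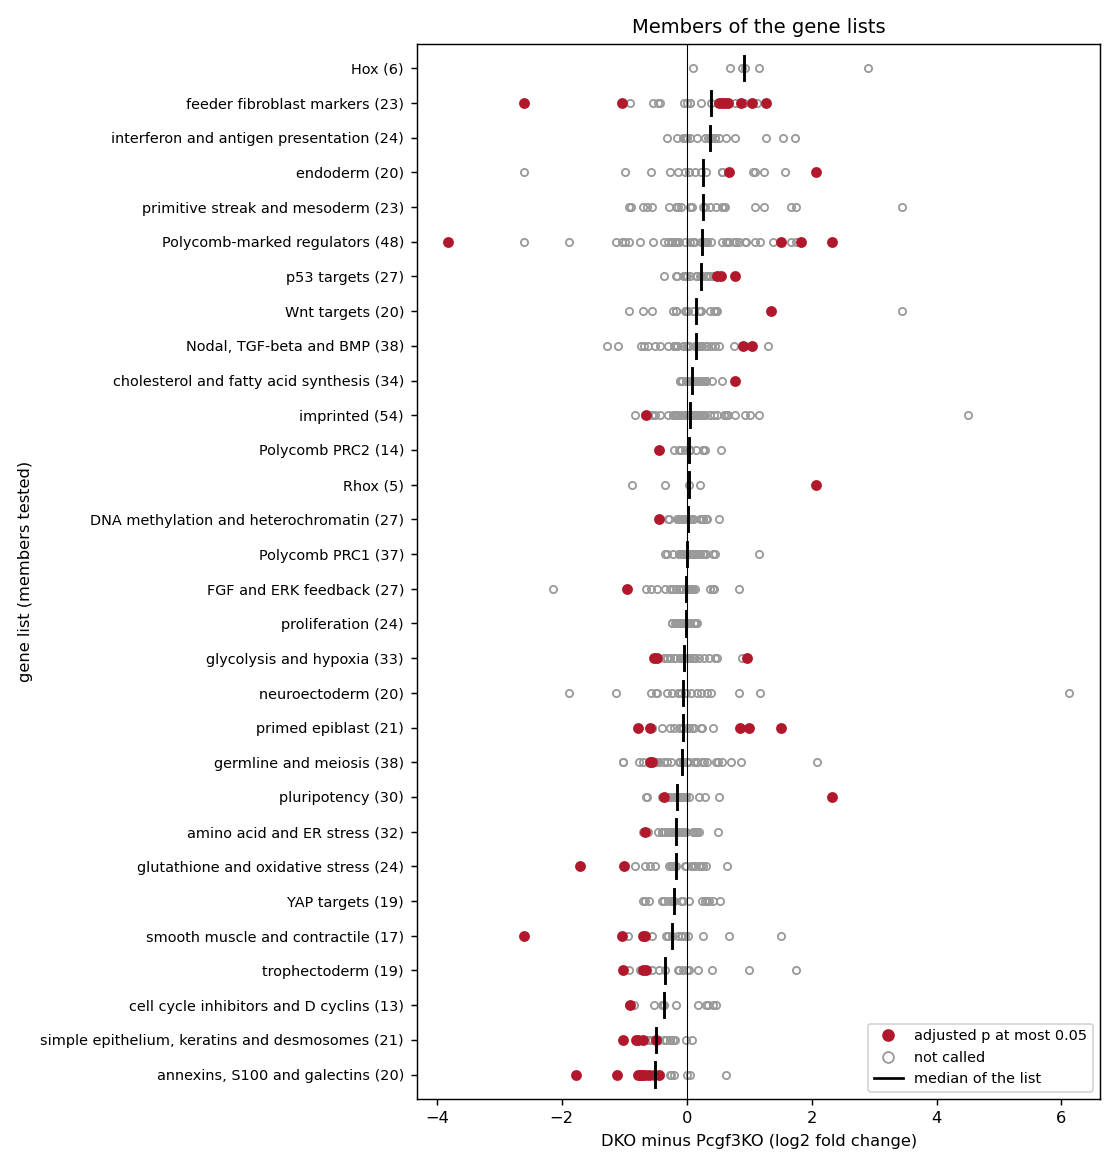
Log2 fold change, DKO minus Pcgf3KO, of each tested member of 30 gene lists, ordered by the list median (black bar), with called members in red. Called members of the annexin, S100 and galectin list and of the epithelial list lie to the left of 0, and the median of all genes is 0.01.

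The feeder markers moved in both directions. Of 23 tested, 7 rose (Col5a1, Col6a1, Fbln2, Fn1, Mmp2, Thy1 and Vim, 30.4% beside 0.734% of all genes), 2 fell (Acta2 and Tagln), and the median was 0.39. The range of the summed CPM of the list was 933.9 to 939.7 in Pcgf3KO and 1263 to 1386 in DKO, with 1434 in WT. Of the 7 defining feeder markers, Thy1 rose, with 12.6 and 14.3 in Pcgf3KO and 22.1 and 33.3 in DKO. Col1a1 had 5.19 and 6.6 against 5.32 and 6.92, and Col1a2 2.52 and 2.52 against 2.16 and 1.58. Col3a1, Lum and Dcn were below a CPM of 2 in all 7 libraries and Postn had at most 6 counts and was not tested. None of the 7 rises belongs to the class, since all were lower in Pcgf3KO than in WT by more than the limit. The part of feeder RNA in the other results was not tested.

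Other members of the class that fell include signalling and cytoskeletal genes. Igf2bp3, an RNA-binding protein of fetal cells, had 22.9 in WT, while Pcgf3KO had 21.8 and 19.6, Pcgf5KO 27.4 and 28.1, and DKO 9.75 and 5.58. Its fall of 1.44 ± 0.21 (adjusted p = 0.0134) had no counterpart in Pcgf5KO, whose libraries lay above WT. Malsu1 overlaps Igf2bp3 on the other strand, and reads in the overlap cannot be told apart. Plaur, the urokinase receptor, had 89.99 and 85.1 in Pcgf3KO and 37.4 and 48.9 in DKO, with 73.8 in WT and 68.5 and 68.4 in Pcgf5KO. Junb, a subunit of AP-1, had 29.7 and 31.7 against 12.2 and 19.2 (−0.96 ± 0.18), and Nr4a1, an immediate early nuclear receptor, 65.9 and 67.1 against 36.9 and 39.4. Both were also the lowest of the 7 libraries in DKO. Gli1, a transcription factor and target of the Hedgehog pathway, had 43.2 and 53.4 against 20.9 and 24.7, but was outside the class with a WT level of 28.2. Loxl4, a lysyl oxidase, fell by 1.35, and Tmem88 by 1.16, where Naa38 overlaps on the other strand. Smaller falls at high levels were those of Tmsb4x (thymosin beta-4, 410 and 433 to 283 and 284), Capns1 (the calpain small subunit, 245 and 268 to 143 and 161) and Adk (adenosine kinase, 108 and 110 to 69.7 and 71.2). Cdkn1b, which encodes the cell cycle inhibitor p27, had 23.3 and 21.4 against 13.5 and 10.5. It was the 1 call among 13 cell cycle inhibitors and D cyclins (7.69% lower beside 1% of all genes). The glucose transporter genes Slc2a1 and Slc2a3 fell by 0.52 and 0.48, the 2 falls among 33 glycolysis and hypoxia genes (6.06% beside 1%). Pgk1 was the 1 rise of that list (3.03% beside 0.734%). The calls of Junb, Cdkn1b, Slc2a1 and Slc2a3 were lost when any 1 of the Pcgf3KO or Pcgf5KO libraries was left out. Of Igf2bp3, Loxl4, Tmem88, Plaur, Nr4a1, Capns1, Adk and Tmsb4x, 0 passed without Pcgf3KO replicate 1 (adjusted p-values 0.054 to 0.185) and 0 without replicate 2 (0.0849 to 0.282). Igf2bp3 and Tmem88 did not pass without Pcgf5KO replicate 1 or 2 (up to 0.0657).

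DKO against Pcgf3KO and Pcgf5KO against WT both measure the loss of Pcgf5, with Pcgf3 absent in the first and present in the second, and have no library in common. The second rests on 1 WT library, and it called 205 genes higher (1.31%) and 263 lower (1.68%). Genes called higher in both were 14, or 12.2% of the 115 and 6.83% of the 205. Genes called lower in both were 10, or 6.37% of the 157 and 3.8% of the 263. A further 8 rose in DKO and were lower in Pcgf5KO, and 18 fell in DKO and were higher in Pcgf5KO. Across all genes tested, which are not independent replicates, the correlation of the 2 changes was −0.0551.

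**Figure D4:**
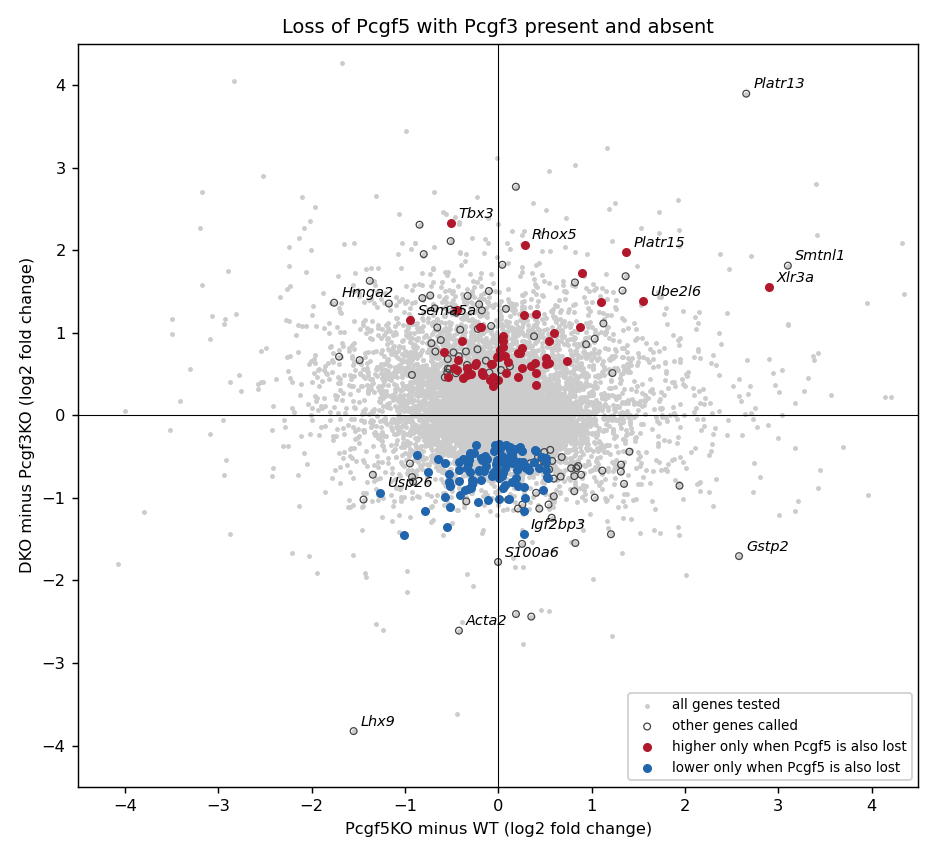
Log2 fold change with Pcgf5 loss where Pcgf3 is present (x, Pcgf5KO minus WT) and absent (y, DKO minus Pcgf3KO) for the genes tested, 26 of which lie outside the axes. Class members (61 red, 107 blue) are spread around 0 on the x axis, with medians of 0.04 and −0.01, and Platr13, Platr15, Ube2l6, Smtnl1 and Xlr3a lie in the upper right.

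Of the 61 rises of the class, 6 were also called higher in Pcgf5KO (Platr15, Xlr3a, Ube2l6, Zfp229, Plekha2 and Alpl), 2 were called lower (Sema5a and Ak4) and 53 were not called. These 6 were thus called higher without Pcgf5 both where Pcgf3 was present and where it was absent. The first of these comparisons rests on 1 WT library. Ube2l6, the conjugating enzyme for the ubiquitin-like protein ISG15, had 15.0 and 17.4 in DKO, against 5.89 and 6.54 in Pcgf3KO, 21.2 and 21.4 in Pcgf5KO and 7.29 in WT. Both genotypes without Pcgf5 were high, and DKO was not above Pcgf5KO. Smtnl1, which encodes a smoothelin-like muscle protein, faces Ube2l6 on chromosome 2 with 840 bases between them. WT had 1.14, Pcgf3KO 2.22 and 2.52, Pcgf5KO 9.35 and 10.4, and DKO 8.70 and 7.96. Smtnl1 rose by 1.81 ± 0.19 against Pcgf3KO and followed its neighbour, but is outside the class since Pcgf3KO lay above WT. Without strand, reads that run past the end of one cannot be told from the other. Platr15, a noncoding RNA, was at 3.53 for WT, 4.08 and 3.52 for Pcgf3KO, 9.88 and 8.33 for Pcgf5KO, and 12.5 and 17.4 for DKO. Alpl, the alkaline phosphatase used to stain ES cells, had 109 and 121 in DKO and 108 and 114 in Pcgf5KO, above 73.2 and 75.3 in Pcgf3KO and 76.1 in WT. Platr13, a noncoding RNA singled out after its values were seen, rose by 3.90 ± 0.26 (adjusted p = 0.000541). It had 1.25 in WT, while Pcgf3KO had 0.504 and 0.671, Pcgf5KO 6.98 and 8.98, and DKO 8.85 and 8.75. Of Platr15, Ube2l6, Zfp229, Alpl and Usp26, 0 passed without Pcgf3KO replicate 1 (adjusted p-values 0.0595 to 0.191) and Usp26 passed without replicate 2 (0.0478).

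Of the 107 falls, 5 were also called lower in Pcgf5KO (Usp26, Gsn, Ahnak, Fhl1 and Slc2a3), 1 was called higher (Pgrmc1) and 101 were not called. Usp26, an X-linked ubiquitin protease gene, had 49.4 and 51.8 in DKO, against 101 and 92.0 in Pcgf3KO, 45.3 and 46.8 in Pcgf5KO and 111 in WT. Its level thus split the libraries by Pcgf5 alone (−0.93 ± 0.09 against Pcgf3KO, adjusted p = 0.00313). Gsn (gelsolin, which severs actin filaments) had 104 in WT, while Pcgf3KO had 74.7 and 80.9, Pcgf5KO 61.8 and 61.4, and DKO 41.4 and 54.9. The difference between the 2 changes, tested as an interaction, was called for 3.79% of all genes, for 22 of the 61 rises and for 42 of the 107 falls. The interaction reads the DKO and Pcgf3KO libraries that chose the class, so nothing is read from these counts. For 33 rises and 60 falls neither Pcgf5KO against WT nor the interaction was called, so a shared and a DKO-specific change could not be told apart for them.

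The 54 rises and 50 falls outside the class were called or past the limit in Pcgf3KO against WT, or did not lie beyond WT in DKO. Their changes against WT and against Pcgf3KO share the Pcgf3KO libraries, so the levels are given side by side only. Pgk1, a glycolysis enzyme on the X chromosome, was at 649 for WT, 390 and 398 for Pcgf3KO, 854 and 838 for Pcgf5KO, and 759 and 772 for DKO. It rose by 0.96 ± 0.06 (adjusted p = 0.000541) from the lowest of the 4 genotypes. Lefty2 had 188 in WT, while Pcgf3KO had 92.4 and 88.1, Pcgf5KO 135 and 147, and DKO 189 and 181 (1.04 ± 0.08, adjusted p = 0.000927), so DKO stood at the WT level. Pcdh19, an X-linked protocadherin gene, was at 9.68 in WT and lower in both single knockouts (3.83 and 4.31 in Pcgf3KO, 4.91 and 6.31 in Pcgf5KO), and DKO had 17.4 and 14.1. Hmga2, a chromatin protein of fetal cells, had 13.7 and 8.6 in DKO, against 4.43 and 4.19 in Pcgf3KO, 4.26 and 4.53 in Pcgf5KO and 14.9 in WT, low in each single knockout. The reverse held for Gstp2, where WT had 1.48, Pcgf3KO 13.5 and 15.4, Pcgf5KO 8.996 and 8.73, and DKO 4.95 and 3.90. For Gstp1, WT had 21.2, Pcgf3KO 46.2 and 52.9, Pcgf5KO 44.7 and 41.8, and DKO 24.7 and 24.96. Both glutathione transferase genes were high in each single knockout and lower in DKO, and reads of these close copies may be split between them. Msln (mesothelin) fell by 1.56, Pla2g7 by 1.13 and Gna14 by 1.24, all from a Pcgf3KO level above WT. Dnmt3l, a cofactor of de novo DNA methylation, was at 212 for WT, 642 and 695 for Pcgf3KO, 564 and 559 for Pcgf5KO, and 484 and 501 for DKO. Aire overlaps it on the other strand. Among 12 such genes, Pgk1, Lefty2, Gstp2, Msln and Zfp990 passed without Pcgf3KO replicate 1, and Pgk1 and Lefty2 passed without replicate 2 (adjusted p-values of the 12 up to 0.282).

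The remaining lists had 0 to 2 calls each, beside 0.734% of all genes called higher and 1% lower, so 0 or 1 call in a list of this size is near that background. Among 37 PRC1 genes 0 were called, with a median of 0.00139, and among 14 PRC2 genes 1 fell, Phf19, a PRC2 accessory subunit (94.6 and 99.6 to 71.2 and 71.5). Among 38 germline and meiosis genes 2 fell (Ddx4 and Tex14, 5.26%), and among 20 endoderm genes 2 rose (Col4a1 and Rhox5, 10%). There were 0 calls among 23 genes of the primitive streak and mesoderm, 20 of neuroectoderm, 24 of proliferation, 24 of the interferon response and 19 YAP targets. Lists with 1 call were the Wnt targets (Wls, up, of 20), FGF and ERK feedback (Junb, down, of 27), imprinted genes (Ascl2, down, of 54) and amino acid and ER stress (Xbp1, down, of 32). DNA methylation and heterochromatin had 1 (Dnmt3l, down, of 27), and glutathione and oxidative stress 2 (Gstp1 and Gstp2, down, of 24, 8.33%). No gene of the 2-cell-like state passed the filter. These counts rose when 1 DKO library was left out, as they did over all genes. Without DKO replicate 2 the PRC1 list had 8 rises and 4 falls, the imprinted list 14 and 12, proliferation 6 and 7, neuroectoderm 3 and 5, and YAP targets 3 and 6. In that setting 14 glutathione genes, 15 of amino acid and ER stress, 10 of FGF and ERK feedback and 8 of the germline list fell. Without DKO replicate 1 the PRC1 list had 3 rises and 1 fall, the imprinted list 7 and 6, proliferation 3 and 3, neuroectoderm 2 and 4, and YAP targets 2 and 3. The primitive streak and mesoderm list then had 5 rises and 0 falls, and the interferon list 4 and 2. At an unadjusted p of at most 0.05, 2853 genes passed, so a list without a call is not shown to be unaffected at this depth and replication.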

How the data were processed

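Poly-A RNA of mouse ES cells was measured in 8 libraries. The authors deposited 1 table of read counts per library, with Ensembl gene identifiers, per the file headers. The submitters' processing notes name TopHat2 2.0.12, Cufflinks 2.2.1, HTSeq 0.6.0 and mm10. The sources used here do not give the strand setting or the annotation. The labels' protocols name an NEBNext Ultra kit, which does not mark strand. Of 47069 identifiers, 46488 matched a symbol, and 0 entries named no gene. The copy of WT replicate 1 breaks off in mid-line and was left out of the fit.

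The other 7 libraries entered 1 fit of edgeR 4.0.16 (quasi-likelihood test, group as the only term, TMM, filterByExpr) in R 4.3.3, with 3 residual degrees of freedom and 15669 genes that hold 99.93% of counts. All groups were fitted together because 2 libraries a group give little spread of their own, so the WT library is assumed to vary like the others. A call needs a p of at most 0.05 after Benjamini-Hochberg adjustment over all genes tested. The script recovered known changes in simulated counts, which did not carry the GC content and length trend of DKO replicate 1. The pass mark for recovery was set on changes larger than the median change of the class.

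Named genes are the 10 largest rises and falls among called genes whose mean log2 CPM is 2 or more and no overlap between libraries, the 10 class members in each direction with the smallest p, and up to 3 members per gene list, without predicted genes. A few of these genes are left out of the text, though counts and figures include them. Other genes named are list members or class members that were called, or were chosen after their values were seen. Members and lists were chosen with earlier results of these data known. Alternatives were DESeq2 1.42.0, relative log expression scaling, other filters, fewer libraries, a replicate block and offsets for GC content and length.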

Additional observations from a re-analysis of the deposited data

Results flagged for a closer look

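The interaction test over all genes (adjusted p at most 0.05, edgeR) called 20 of the 33 genes named by size or by the class and reported here, beside 3.79% of all genes. The genes were named from the change between Pcgf3KO and DKO, which is part of the interaction, so a high share is built in and nothing is read from it. The values are the log2 change from Pcgf3KO to DKO minus that from WT to Pcgf5KO. The Pcgf5KO side rests on 1 WT library.

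The difference was above 0 for 9 genes. It was 3.12 for Hmga2, 2.84 for Tbx3, 2.75 for Pcdh19 and 2.10 for Sema5a, all of which had a value below 0 in Pcgf5KO against WT (−1.76, −0.51, −0.80 and −0.94). It was 1.78 for Rhox5, 1.72 for Saa3, 1.21 for Megf11, 0.87 for Sdc4 and 0.70 for Nlrp4f.

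The difference was below 0 for 11 genes. It was −4.28 for Gstp2, which was higher by 2.58 in Pcgf5KO than in WT and lower by 1.71 (−1.71) in DKO than in Pcgf3KO. It was −1.81 for Msln, −1.81 for Gna14, −1.77 for S100a6, −1.71 for Igf2bp3 and −1.57 for Pla2g7. It was −1.44 for Tmem88, −0.94 for Capns1, −0.93 for Adk, −0.91 for Plaur and −0.71 for Tmsb4x.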

How the results depend on the processing

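Main counts were 115 higher and 157 lower in DKO than in Pcgf3KO, 61 and 107 in the class, and 14 and 10 called the same way in both comparisons of Pcgf5 loss. With relative log expression scaling they were 121 and 159, with DESeq2 149 and 222, and without WT replicate 2 119 and 156. With only the 4 DKO and Pcgf3KO libraries they fell to 15 and 20. With no filter on low counts they were 711 and 644, the class 348 and 373, and the shared calls 50 and 50. With the GC content and length offsets they were 396 and 342, the class 211 and 216, and the shared calls 32 and 55. DESeq2 gave 16 shared falls. The class held 38 rises and 69 falls with Pcgf3KO within 0.25 of WT. A gap of at least 0.5 in place of 1 gave 490 genes above and 210 below, against 79 and 30.

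Leaving out 1 library gave 4 to 2711 genes higher and 3 to 2860 lower. The class then had 1 to 1799 rises and 1 to 1953 falls, and the shared calls were 1 to 247 higher and 0 to 312 lower. The highest counts came without DKO replicate 2 and the lowest without a Pcgf3KO library.

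The labels give all groups replicates 1 and 2 without saying what a number shares. Deviations of same-numbered libraries correlated at 0.135 between Pcgf3KO and DKO, −0.0139 between Pcgf3KO and Pcgf5KO and 0.0101 between Pcgf5KO and DKO. Whether same-numbered libraries share a batch or culture cannot be told from these values. A replicate block gave 227 higher and 272 lower, 125 and 180 in the class, and 18 and 20 shared calls. All 272 main calls were among those under the block. With 2 libraries a genotype, depth and replication limit calls at low counts.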
